A study of Drosophila melanogaster with 3 samples.

Results

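Of the 63358 places marked by at least 1 of 3 purifications of the exon junction complex (EJC) from S2 cells, 19823 carried peaks of the purification through tagged Btz and of no other. The EJC is a set of proteins that splicing leaves on mRNA upstream of exon-exon junctions, where it accompanies the transcript to the cytoplasm until the first round of translation removes it. Its core contains eIF4AIII, an RNA helicase that clamps the RNA, the heterodimer of Y14 and Mago that locks this clamp, and Btz (Barentsz), which binds eIF4AIII and which in the fly oocyte is needed for localisation of oskar mRNA. Fly genes hold many short introns, so that neighbouring exons of a transcript can lie close together in the genome.

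S2 is an established Drosophila melanogaster cell line with properties of hemocytes. Cells of all 3 libraries were induced with copper to make a tagged EJC protein, grown for 72 h and kept for 2 h in 100 µg/ml cycloheximide, which stops translation. Complexes taken by the tag were selected on oligo(dT), cut with micrococcal nuclease (MNase) for 15 min and taken a second time with an antibody to an endogenous EJC protein. The libraries were tagged Btz then eIF4AIII (Btz/eIF4AIII; 0.5 units of MNase), tagged eIF4AIII then Y14 (eIF4AIII/Y14; 0.5 units) and tagged Y14 then eIF4AIII (Y14/eIF4AIII; 0.3 units). The tagged protein was induced beside the endogenous one, and an untagged control purification was not analysed here. Each purification had 1 library, so a difference between purifications has no replicate check, no p-value is given, and the 95% intervals (exact binomial, or from order statistics for medians) cover counting error over peaks alone.

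Same-strand peaks of the 3 lists that overlapped by 1 bp or more were merged into loci, and loci with Btz/eIF4AIII peaks alone were kept. They are called Btz-only loci below. They were 31.3% of all merged loci, and their peaks were 54.5% of the 36393 peaks of the Btz/eIF4AIII list. Each of them consisted of a single peak. By comparison 18566 loci had an eIF4AIII/Y14 peak alone, out of 34945 peaks, and 7258 had a Y14/eIF4AIII peak alone, out of 16094. The overlap chose the members, so these counts describe the choice. The count rose to 27069 where an overlap of 50% of both peaks was asked for. It was 29362 with the eIF4AIII/Y14 list left out and 22606 with the Y14/eIF4AIII list left out. There were 11989 when peaks below the median score of their list were dropped and 9953 with lists of equal length, the 16094 deepest peaks of each. The last 2 settings also shorten the Btz/eIF4AIII list itself, so these lower counts are not a lower share of it. With equal lengths the members were 9953 of 16094 Btz/eIF4AIII peaks, against 19823 of 36393 with all peaks. The lists hold called peaks, and a place without a peak in another list may still hold reads there that were not called. No source used here gives the number of reads per library. Coordinates are those of release 5 of the fly genome, judged by sequence names such as 2RHet and Uextra, 1-based. The annotation used here is of release 6, so members were not assigned to genes, exons, introns or UTRs.

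With any overlap counted, Btz-only loci were narrower and shallower than the Btz/eIF4AIII peaks that overlapped another list. Their median width was 51 nt (95% interval 51 to 51), with 25% at or under 32 nt and 25% at or over 68 nt. The 16570 Btz/eIF4AIII peaks that overlapped another list had a median of 57 nt (57 to 58). That median was 51 nt where the other list was eIF4AIII/Y14 alone, 62 nt where it was Y14/eIF4AIII alone, and 72 nt where both overlapped. The wider medians thus belonged to the peaks that overlapped Y14/eIF4AIII. The order turned when an overlap of 50% of both peaks was asked for, with medians of 54 nt for Btz-only loci and 50 nt for the rest.

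Both ends of the width range were unequal. Peaks of 150 nt or more were 1.43% of the Btz-only loci (283) against 7.24% of the overlapping peaks (1199), and 4.07% of the whole list. Peaks under 10 nt were 5.19% (1028) against 2.35% (390), and 3.9% of the whole list. Wide peaks meet a peak of another list more easily, so the rule itself favours narrow members.

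One width stood out. Exactly 76 nt was the width of 1674 Btz-only loci, 8.44% of them, against 657 of the overlapping peaks (3.97%) and 6.41% of the whole list. Of the Btz/eIF4AIII peaks exactly 76 nt wide 71.8% (69.9 to 73.6) were Btz-only, against 56.8% (55.0 to 58.5) of those of 65 to 75 nt and 39.8% (38.0 to 41.6) of those of 77 to 99 nt. The same width was the most frequent of the Y14/eIF4AIII list (631 peaks), whereas the eIF4AIII/Y14 list had 3137 peaks of exactly 40 nt and 93 of 76 nt. No source used here states the read lengths, so whether 76 and 40 nt are the lengths of single reads is not known. Most frequent widths thus differed between the libraries, and the part of this difference in the overlap was not tested.

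**Figure D1:**
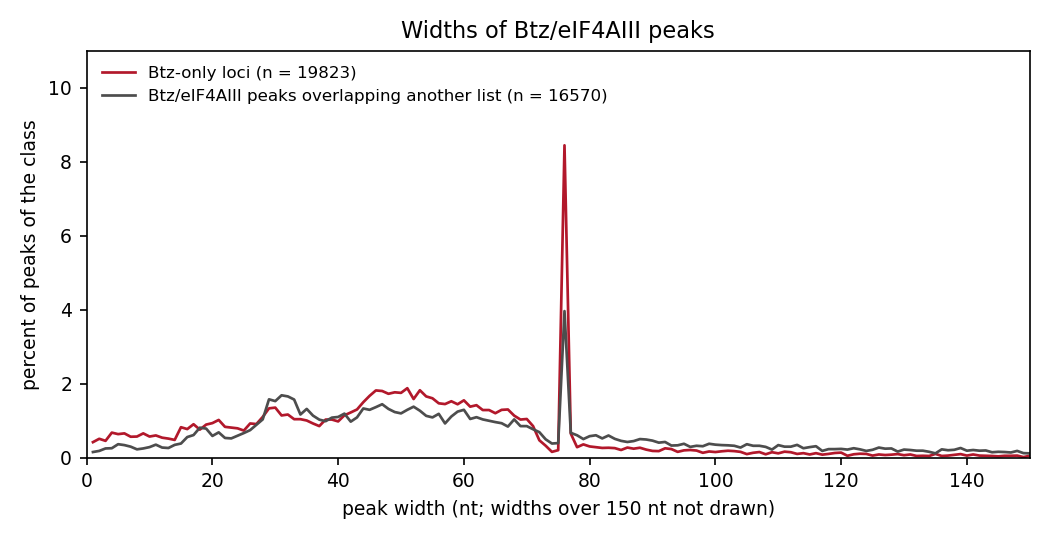
Percent of peaks (vertical axis) at each width in nt (horizontal axis) for the 19823 Btz-only loci (red) and the 16570 Btz/eIF4AIII peaks that overlapped another list (grey), in 1 library. Both classes have a spike at 76 nt, which held 8.44% and 3.97% of the peaks, and beyond it the red line lies below the grey one.

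The deposited score of a peak, here called depth, behaves as the mean number of reads over its bases. The median depth of Btz-only loci was 71 reads per base (68 to 75), against 132 (126 to 138) for the overlapping Btz/eIF4AIII peaks and 206 for those found in all 3 lists. Depths ran from 1.02 to 4796 in the Btz-only loci, and to 68646 in the overlapping peaks. Within the Btz/eIF4AIII list the median Btz-only peak stood at percentile 45.6 of depth, and the median overlapping peak at percentile 55.3. The Btz-only loci made up 47.1% of the bases covered by the list and 31.8% of its depth summed over bases.

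The fall in depth was not spread evenly over the list. In the lowest 10% of the list by depth, up to 5 reads per base, 64.3% (62.8 to 65.8) of the peaks were Btz-only. It was 61.6% in the next 10%, and from the third to the ninth decile it stayed between 51.4% and 57.2%. In the deepest decile, at or above 562 reads, it was 38.0% (36.4 to 39.6). Lack of a counterpart was therefore common at every depth, including 1382 of the 3640 deepest peaks.

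A peak has a whole-number depth when its reads add up to an exact multiple of its width, as they do when every base is covered by the same reads. Among Btz-only loci of at least 15 nt, 53.97% (53.2 to 54.7; 9851 of 18254) had such a depth (within 1e-09 of a whole number). Among the overlapping Btz/eIF4AIII peaks it was 22.1% (21.5 to 22.8), with 13.1% for peaks found in all 3 lists, and 39.1% for the whole list. The 2 classes differed in this respect at every depth. In the lowest 25% of the list by depth the share was 71.8% against 37.8%, and in the deepest 25% 35.1% (33.6 to 36.6) against 11.8% (10.9 to 12.8).

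Width gave the same order up to 76 nt. Of the peaks of 45 to 54 nt, 73.8% of the Btz-only loci and 37.7% of the overlapping peaks had a whole-number depth, and of those exactly 76 nt wide 51.6% and 37.6%. From 77 nt on the share fell to 1.37% and 1.305% (77 to 99 nt), so whole-number depth was rare beyond that width in both classes. Whole-number Btz-only loci had a median depth of 32 reads and the rest 163. The loci that the other lists alone marked had high shares too, 67.7% for eIF4AIII/Y14 and 68.7% for Y14/eIF4AIII, against 33.2% and 40.6% for the peaks of these lists that overlapped another. Among the Btz-only loci the share was 35.1% with peaks at or above the median score of their list and 34.6% with lists of equal length.

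**Figure D2:**
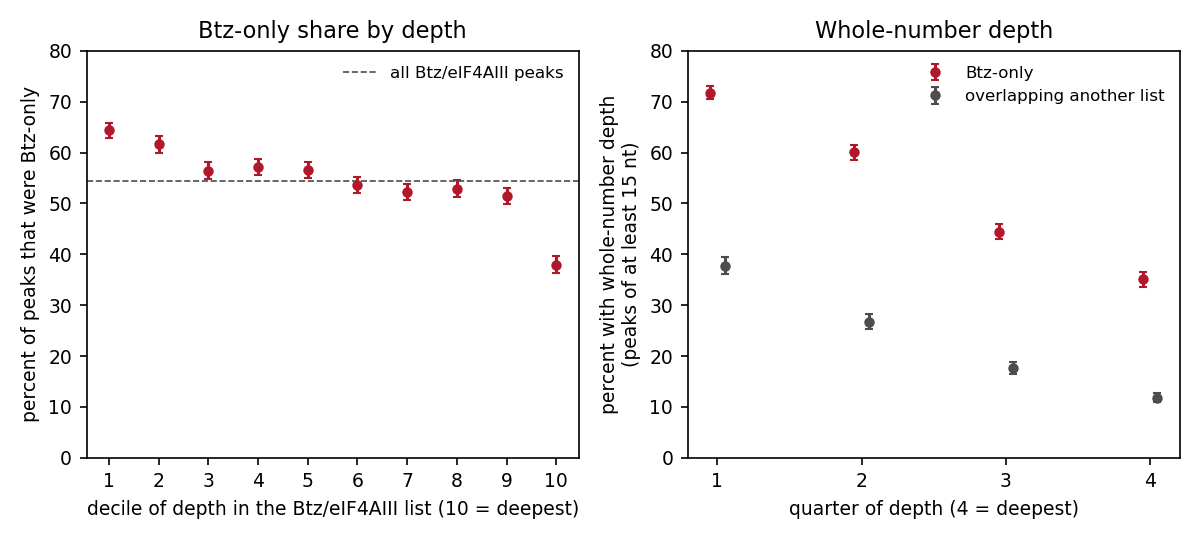
Left, percent of Btz/eIF4AIII peaks that were Btz-only in each decile of depth (decile 10 is the deepest), with the 54.5% of all peaks dashed. Right, percent of peaks of at least 15 nt with whole-number depth in each 25% of the list by depth (4 is the deepest), for Btz-only loci (red) and overlapping peaks (grey). Bars are exact 95% binomial intervals over peaks of 1 library, and the red points lie above the grey ones in each of the 4 depth classes.

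Most Btz-only loci lay close to a place that another purification marked. The nearest same-strand peak of another list was a median of 185 nt away (181 to 191; 1 nt is the next base), and 34.9% of the loci had one within 100 nt. The distance was over 5000 nt for 1182 loci (5.96%). For the loci marked by eIF4AIII/Y14 alone the median was 205 nt, and for those marked by Y14/eIF4AIII alone 162 nt, each measured to the other lists. The median was 256 nt to the nearest eIF4AIII/Y14 peak and 828 nt to the nearest peak of the shorter Y14/eIF4AIII list. The median distance rests on the lists and the overlap: it was 679 nt with the eIF4AIII/Y14 list left out, 310 nt with peaks at or above the median score of their list, and 89 nt where an overlap of 50% of both peaks was asked for. Loci farther from other lists were shallower, with a median of 91.6 reads within 100 nt and 30 reads beyond 5000 nt.

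At the edge of the rule, 812 Btz-only loci had a peak of another list 1 to 10 nt away, and 1615 Btz/eIF4AIII peaks overlapped one by 1 to 10 nt at most. Their median depths were 79.5 and 94.5 reads and their median widths 52 and 27 nt. A small change in the overlap would move these peaks across the line.

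The side of the nearest neighbour depended on the distance. Up to 50 nt away, the nearest peak of another list lay upstream, by the strand column, for 42.6% (40.9 to 44.3) of the Btz-only loci. At 51 to 76 nt, which leaves 50 to 75 nt between them, it lay upstream for 63.8% (61.7 to 65.8), or 1431 loci against 813. From 77 to 2000 nt it was 54.8% (53.9 to 55.6). Loci with their neighbour 51 to 76 nt upstream had a median width of 38 nt, against 51 nt where it lay as far downstream. In 75.9% of these upstream cases the neighbour belonged to a locus that held a Btz/eIF4AIII peak as well, against 42.4% downstream. At this distance the share upstream was 58.5% (55.9 to 61.1) for loci of eIF4AIII/Y14 alone and 49.1% (45.0 to 53.2) for loci of Y14/eIF4AIII alone.

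**Figure D3:**
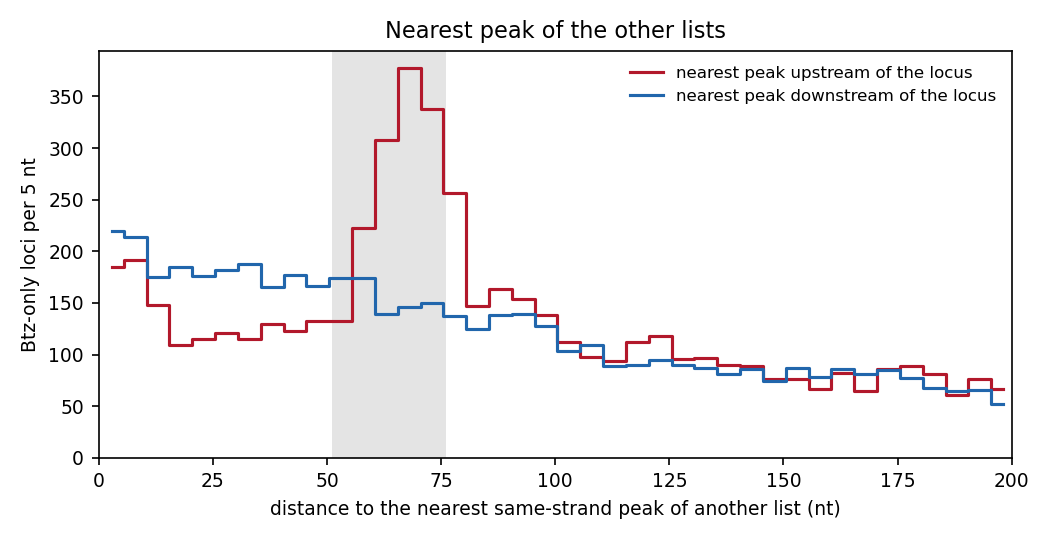
Number of Btz-only loci per 5 nt of distance to the nearest same-strand peak of another list, split by the side on which that peak lay (red upstream, blue downstream). The grey band marks 51 to 76 nt, where the upstream count reaches 378 at 66 to 70 nt while the downstream count at 51 to 75 nt stays between 139 and 174.

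The same asymmetry could be seen inside the Btz/eIF4AIII list, partly in the same places, so it is not a separate result. The number of places in both counts was not determined. Gaps between its neighbouring peaks were at least 25 nt long, as in the other lists, and 17.3% of them (6288) were of 50 to 75 nt, a range in which many fly introns lie. Between 2 Btz-only loci the share was 12.9% (1600 of 12370). Of the short gaps, 2399 had a Btz-only locus on 1 side and a peak that overlapped another list on the other. The Btz-only locus lay downstream at 1833 of them, or 76.4% (74.7 to 78.1). Over gaps of any length the share was 50%, a value fixed in advance because both orders alternate along a strand. An excess at some lengths is therefore offset by lower shares at others. At gaps of 25 to 49 nt the share was 35.1% (32.0 to 38.2), at 76 to 99 nt 48.1% (44.5 to 51.6) and at 100 to 200 nt 46.3% (44.1 to 48.5). Btz-only loci thus lay mostly on the downstream side at gaps of 50 to 75 nt and not at the neighbouring lengths.

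Membership takes the absence of peaks in the other lists into account, so the side counts describe where the other lists lacked peaks. With the eIF4AIII/Y14 list left out of the merging the downstream share at short gaps was 58.6%, and with the Y14/eIF4AIII list left out it was 76.98%. In the eIF4AIII/Y14 list the loci found in it alone lay downstream at 55.4% (52.0 to 58.8) of 866 such gaps, and in the Y14/eIF4AIII list at 60.3% (53.7 to 66.7) of 232.

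Btz-only loci just downstream of a short gap, 3433 in all, were small, with a median width of 31 nt. At the 1833 gaps with a shared peak upstream, the median widths were 53 nt upstream and 28 nt downstream. Depth was higher upstream at 1043 of them and downstream at 580, and the median ratio of downstream to upstream depth was 0.961. Short gaps between 2 shared peaks leaned the same way, with the upstream peak deeper at 1298 and the downstream one at 898, a ratio of 0.932 and median widths of 59 and 50 nt. At the 566 gaps with the Btz-only locus upstream the shared downstream peak was the wider, 60 against 48.5 nt, and the deeper at 311 gaps against 241. On either side of a short gap the Btz-only locus had the smaller median width and was more often the shallower of the pair. This depth order was not particular to these loci and gaps. The upstream peak was deeper at 56.9% of short gaps with a Btz-only locus downstream and at 56.7% of those between 2 shared peaks. With the Btz-only locus upstream, the shared peak was deeper at 54.9% of short gaps and at 54.5% of gaps of any length.

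Many pairs across a short gap had identical depth (tolerance 1e-09). Both sides were equal at 22.6% (20.5 to 24.7; 361 of 1600) of the short gaps between 2 Btz-only loci and at 11.5% (10.0 to 13.0) of those with a Btz-only locus downstream of a shared peak. The value was 2.47% with the Btz-only locus upstream, 4.06% between 2 shared peaks and 10.8% over all short gaps. In the other lists it was 21.5% (18.7 to 24.6) between 2 loci of eIF4AIII/Y14 alone and 50% (42.2 to 57.8; 83 of 166) between 2 loci of Y14/eIF4AIII alone. Between 2 Btz-only loci it was 0.634% for gaps of 25 to 49 nt, 6.82% for gaps of 76 to 99 nt and 3.23% for gaps of 100 to 200 nt. Pairs of equal depth were thus most frequent at gaps of 50 to 75 nt among these lengths.

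The 2 widths also added up to 76 nt more often there. This held for 6.44% (103) of the short gaps between 2 Btz-only loci and 5.35% (98) of those with the Btz-only locus downstream, against 4.39% of all short gaps and 0.951% of the gaps of 25 to 49 nt between 2 Btz-only loci. Median widths beside gaps between 2 Btz-only loci were 44 and 35 nt at short gaps, and 55 and 60 nt at 25 to 49 nt. Sums close to 76 nt were not counted, so the part of these smaller widths was not tested. In 46 of the 103 the depths were equal as well. The deepest of these 46, picked after the values were seen, lies on 3R, plus strand, where a peak of 66 nt at 4184807 to 4184872 and one of 10 nt at 4184929 to 4184938 both had 345 reads per base, across a gap of 56 nt. Another, on 3R at 312208 to 312253 and 312318 to 312347, plus strand, had widths of 46 and 30 nt with 287 reads in each. At both places the widths add up to the most frequent width of the list, and it is not known whether that is the read length.

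**Figure D4:**
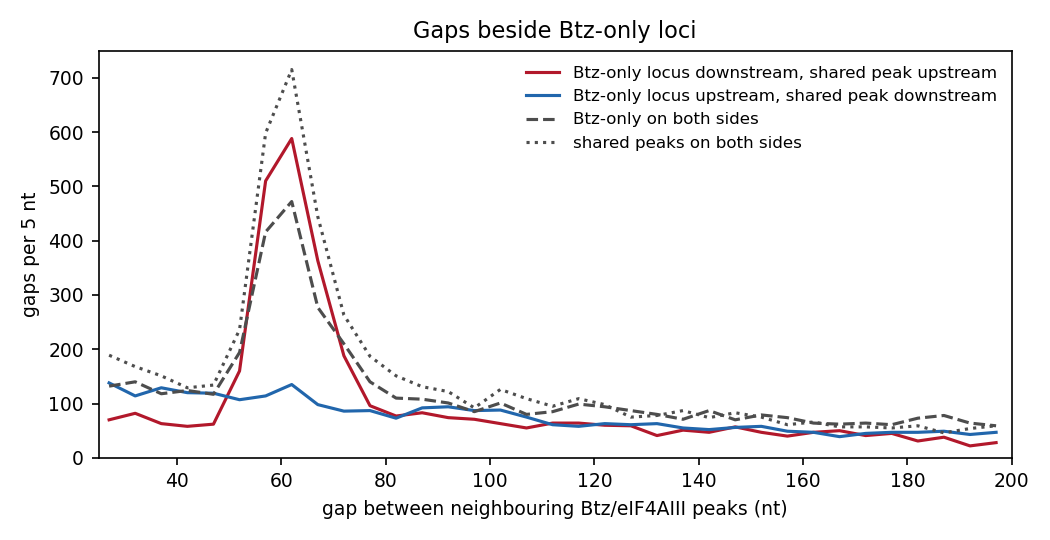
Gaps between neighbouring Btz/eIF4AIII peaks per 5 nt of gap length, by what flanks them. Gaps with a Btz-only locus downstream of a shared peak (red) rise to 588 at 60 to 64 nt, whereas gaps with the Btz-only locus upstream (blue) have 135 there and no peak of comparable height.

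Short gaps touched 26.6% of the Btz-only loci (26.0 to 27.2) and 38.2% (37.5 to 39.0) of the overlapping Btz/eIF4AIII peaks. They lay on the upstream side of 3101 loci, on the downstream side of 1834 and on both sides of 332. The 14556 loci without a short gap were wider, with a median of 54 nt, their median depth stood at percentile 43.95 of the list, and 10.4% of them were exactly 76 nt wide. The loci with a short gap upstream alone stood at percentile 50.95, 2.71% of them were 76 nt wide, and 24.8% were under 15 nt.

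The 5 deepest Btz-only loci each had their nearest peak of another list upstream. The deepest lies on 2R at 2632343 to 2632378, plus strand, with 4796 reads per base, rank 34 of the list. A Btz/eIF4AIII peak of 5019 reads and an eIF4AIII/Y14 peak of 180.03 reads both ended 61 nt upstream, at base 2632282, while the nearest Y14/eIF4AIII peak was 1223 nt away. The second, at 8105212 to 8105250 of 3L (plus strand), reached 4158 reads, more than the 2301 of the Btz/eIF4AIII peak upstream of it, which ended at 8105144. The nearest eIF4AIII/Y14 peak there was 72 nt upstream with 418 reads. At both places a deep Btz/eIF4AIII peak and an eIF4AIII/Y14 peak lay together on the upstream side of the gap.

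The next 3 had the same order, on 2L across a longer distance than that of the short gaps. On 3L at 6069123 to 6069166, plus strand, 3199 reads stood downstream of a Btz/eIF4AIII peak of 3721 reads, 66 nt away, and of an eIF4AIII/Y14 peak 77 nt away. On 2R at 19980707 to 19980738, minus strand, there were 2736 reads, and the Btz/eIF4AIII and eIF4AIII/Y14 peaks upstream both had their near edge 62 nt away. On 2L at 21101573 to 21101608, minus strand, there were 2848 reads, and the distances were 115 nt to a Btz/eIF4AIII peak of 2802 reads and 118 nt to an eIF4AIII/Y14 peak. The 5 loci were between 32 and 44 nt wide.

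The widest Btz-only loci formed another kind of place. Of the 5 widest, 3 lay within 10 kb on the plus strand of 3L, at 13842150 to 13842588, 13849970 to 13850449 and 13851149 to 13851605, with widths of 439, 480 and 457 nt and 311, 818 and 353 reads per base. Between the last 2 lay a Btz/eIF4AIII peak of 616 nt with 817 reads that overlapped a Y14/eIF4AIII peak. Window 13840001 to 13850000 of 3L held 24 Btz-only loci, all on the plus strand, at a median of 327 reads, beside 13 eIF4AIII/Y14 and 17 Y14/eIF4AIII peaks. The peaks of the other lists nearest to the 3 wide loci were 19 to 68 nt wide. The other 2 of the widest were on 2R at 11746880 to 11747286, minus strand, and on 2L at 546565 to 546961, plus strand, with 306 and 242 reads.

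The 5 windows of 10 kb with most Btz-only loci held 22 to 26 each. The leading one, 2L 14320001 to 14330000, had 26, and in chromosome 4 window 550001 to 560000 there were 22, in both cases all on the plus strand and at medians of 31.0 and 32.3 reads. Peaks of other lists numbered 3 in the 2L window and 1 in the chromosome 4 window, all of eIF4AIII/Y14. On 2R the window at 3460001 held 23, of which 20 were on the plus strand, among 25 eIF4AIII/Y14 and 6 Y14/eIF4AIII peaks. On 3R the window at 24350001 held 22, all on the minus strand, with 2 peaks of each other list. All 5 windows thus held peaks of at least 1 other list, few in some and many in others. Of the 4690 windows with a Btz-only locus, 489 (10.4%) had no peak of another list on either strand, and they held 766 of the loci (3.86%).

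Along each chromosome strand, Btz-only loci often followed one another with no locus of another kind between them. Runs of 5 or more numbered 302 and held 1869 loci, 9.43% of all Btz-only loci (9.03 to 9.84). Loci of eIF4AIII/Y14 alone, 29.3% of all loci against 31.3% for Btz-only loci, made 230 runs with 7.22% of their number (6.85 to 7.60). Loci of Y14/eIF4AIII alone made 6 runs, but were only 11.5% of all loci. A smaller share by construction gives fewer and shorter runs, so the runs of neither other list are on a like footing with the Btz-only runs. The part of the unequal shares in these differences was not tested, so no excess of Btz-only runs is read from them. Of the Btz-only runs 154 had exactly 5 loci and 19 had 10 or more, against 6 of 10 or more for eIF4AIII/Y14 and 0 for Y14/eIF4AIII. The longest had 24, 12 and 7 loci in the same order. The number of runs rests on which lists are merged: there were 2033 with the eIF4AIII/Y14 list left out, 619 with the Y14/eIF4AIII list left out and 123 with lists of equal length.

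Loci in runs were close to other Btz-only loci in width and whole-number share. Their median width was 50 nt against 51 nt, their median depth 79 reads (68 to 90.2) against 70.4 (67 to 74), and their whole-number share 54.2% against 53.9%. Gaps of 50 to 75 nt made up 17.5% (15.7 to 19.5; 275 of 1567) of the gaps inside runs. Over all gaps between 2 Btz-only loci it was 12.9% (12.3 to 13.5), a number that includes the gaps inside runs. A gap inside a run holds no locus of another list by definition, whereas other gaps between 2 Btz-only loci may hold one. The run rule thus leaves out some longer gaps, so no contrast is drawn from these shares. The median run spanned 4366 nt, and 200 of the 302 spanned 10 kb or less. Runs were found on all 5 large arms and on chromosome 4, with 1 each on 2RHet and 3LHet.

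The longest run lies on chromosome 4 at 542105 to 553420, plus strand. Its 24 loci had depths from 1.84 to 2106 reads with a median of 33.5, so that it held both deep and shallow peaks, and 8 of the 24 exceeded the median of the list. The locus after it held a Btz/eIF4AIII peak of 22.3 reads and an eIF4AIII/Y14 peak of 527 reads, and a run of 12 loci followed at 553609 to 559312. The opposite strand held no peak of any list along either run. Together both runs held 36 of the 253 Btz-only loci of chromosome 4. Runs held 32.0% (26.3 to 38.1) of the Btz-only loci of that chromosome, and 20.7% (15.5 to 26.7) with these 2 runs left out, against 7.02% to 10.5% on the large arms.

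The second run, 21 loci on the minus strand of 2L at 16405246 to 16510069, was the most spread of the 5 longest, over 104824 nt. It had a median depth of 37 reads, and 11 peaks of other lists and 25 Btz/eIF4AIII peaks lay on the opposite strand. A pair of compact runs lie near each other on the plus strand of 2L, with 13 loci at 14319554 to 14322702 and 14 loci at 14324349 to 14327611. Their median depths were 10 and 145 reads, and the latter ended with a pair of equal depth, 378 reads on 42 and 15 nt. On the minus strand of 2R, 13 loci at 11896938 to 11903964 had a median of 62.4 reads, and 5 of the 12 gaps between them were of 50 to 75 nt. The long runs thus differed among themselves in span, depth and spacing.

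**Figure D5:**
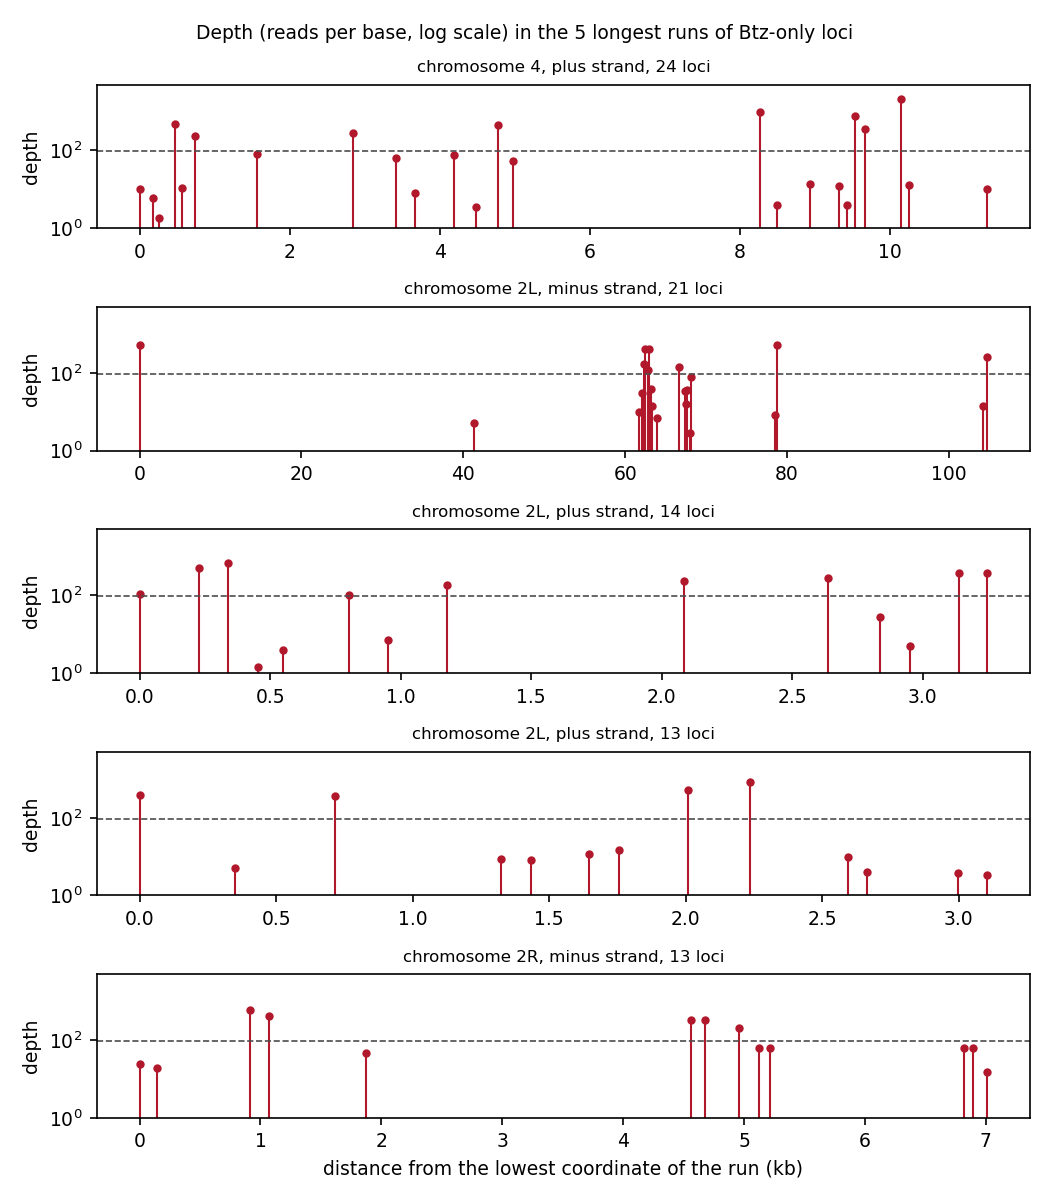
Depth in reads per base (log scale) of every locus in the 5 longest runs of Btz-only loci, against the distance in kb from the lowest coordinate of the run, with the list median of 95.3 reads dashed. Each point is 1 peak of 1 library, and in the top run depths reach from 1.84 to 2106 within 11316 nt.

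Btz-only loci were spread over all chromosomes, and 97.9% lay on the 5 large arms, with 48.7% on the plus strand. The X chromosome held 16.2% (15.7 to 16.7) of them, against 13.3% of the overlapping Btz/eIF4AIII peaks and 14.9% of the whole list. Of the Btz/eIF4AIII peaks on X 59.4% (58.1 to 60.7) were Btz-only, the highest share of the 5 large arms, against 52.3% (51.2 to 53.4) on 2R, the lowest. The median depth was 72 reads for the Btz-only loci of X and 68 for those of 2R. The share was 42.5% (38.5 to 46.6) on chromosome 4, where the Btz-only loci had a median of 29 reads.

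On the unplaced sequences the share was smaller, 18.8% (14.1 to 24.2; 46 of 245 peaks) on Uextra and 27.4% (16.9 to 40.2; 17 of 62) on U. The only mitochondrial peak of the series, at 2949 to 2978 on the plus strand with 8 reads per base, was Btz-only, with no peak of another list on that sequence. The most isolated Btz-only loci were mostly shallow. The farthest, on 2RHet at 1895191 to 1895210, was 880663 nt from the nearest same-strand peak of another list and had 6.35 reads per base. The next 3, at 196202 and 196151 nt on 3L and 187916 nt on 3LHet, had 7, 7 and 4 reads. Those with 7 reads lay side by side on the minus strand, at 23883161 to 23883188 and, 1 nt wide, at 23883110. The fifth, on 3L at 10453525 to 10453580, 174595 nt away, had 209.6 reads. Peaks of the opposite strand overlapped 1.07% (0.931 to 1.22) of the Btz-only loci and 1.61% (1.43 to 1.81) of the overlapping Btz/eIF4AIII peaks, so nearly all members lay where a single strand was marked.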

How the data were processed

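The 3 stranded peak lists, 1 per library, were used as the authors deposited them. Column 5 of each list, the score, is a signal value deposited by the authors. Score times width was whole (tolerance 0.001) in 100% of the peaks, so the score was read as mean read depth, not scaled to library size, and compared within a list. The submitters' processing notes name Bowtie and SAMtools, and the track names, per the file headers, contain the words clipped and merged. No source used here names the peak caller, its threshold or the genome build. Loci, runs, gaps and distances were computed with Python 3.11.15, numpy 2.4.6, pandas 2.3.3 and scipy 1.17.1 and tested on simulated data. The eIF4AIII/Y14 track name mentions Y14 alone, and that list was grouped by its label. A run is at least 5 consecutive Btz-only loci of 1 strand. Places named are the 5 deepest, widest and farthest loci, the 5 longest runs and the 5 windows of 10 kb with most Btz-only loci. Members and measures were chosen with earlier results of these data known. Intervals cover counting error over peaks only, since each purification had 1 library. Reads carry no molecular identifiers. Alternatives changed the overlap, strand, merging distance, score, list length, width and lists used.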

Additional observations from a re-analysis of the deposited data

How the results depend on the processing

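Of 65 alternative values, 27 stayed within the interval of the reported value or, for counts, within 1.5 times of it. Btz-only and overlapping Btz/eIF4AIII peaks were also compared under 8 alternatives in median width, whole-number share, depth percentile and share on X. The width order turned with overlap set at 50% of both peaks (54 against 50 nt), and the other 3 orders stayed in all 8. These comparisons and the alternatives for the side at gaps of 50 to 75 nt were chosen after seeing the data. No paired analysis was possible because each purification had 1 library.

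With overlap set at 50% of both peaks, the median width was 54 nt, the whole-number share 45.0%, the median depth percentile 49.5, the median distance 89 nt, the share on X 15.5%, the share of short gaps between Btz-only loci 15.0% (12.9% as reported), the nearest peak upstream 52.1% and the member downstream of short gaps 73.6%. With peaks at or above the median score of their list there were 11989 loci, at 61 nt, 35.1% whole-number depth, percentile 47.3, a distance of 310 nt, 12.1% short gaps and 52.8% upstream. With lists of equal length (16094 deepest peaks) there were 9953 loci and 123 runs, at 61 nt, 34.6%, percentile 47.1, 260 nt, 11.9% short gaps, 52.8% upstream and 79.2% downstream of short gaps.

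With peaks of at least 15 nt the width was 53 nt, the whole-number share 52.6% and the short gaps 9.86%. Counting any width, the whole-number share was 55.8%. With the eIF4AIII/Y14 list left out, the whole-number share was 44.05%, the percentile 47.9, the runs 2033, the distance 679 nt and the downstream share 58.6%. With the Y14/eIF4AIII list left out, the width was 52 nt, the whole-number share 51.1%, the runs 619 and the distance 244 nt. Runs of 10 or more numbered 19. Fewer peaks in the other lists by construction lengthen distances and leave more loci without a counterpart. The cause of the other changes was not tested. Depth limits all counts, since reads that were not called as peaks are not in the lists.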
